A study of Mus musculus with 2 samples.

Results

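The miR-200 family (mmu-miR-200b-3p, mmu-miR-200a-3p, mmu-miR-429-3p, mmu-miR-200c-3p and mmu-miR-141-3p), the epithelial miRNAs mmu-miR-203-3p and mmu-miR-205-5p and the miR-183 cluster (mmu-miR-183-5p, mmu-miR-96-5p and mmu-miR-182-5p) were examined in exosome RNA of a mouse lung tumour line. These 10 miRNAs were chosen by name, from the guide arms of the respective hairpins, and all 10 stood among the 1881 mouse miRNAs of the array. The samples were exosomes, membrane-bound vesicles secreted by cells, which had been isolated from medium conditioned by the Lewis lung carcinoma (LLC) line. The cells had been kept without serum in medium with 5 µM cisplatin, a DNA-damaging platinum drug, for 24 h. Independent experiments gave 2 samples, which form a single group (1 group), each on its own one-colour array. No untreated exosomes and no RNA of the cells themselves were analysed here, and the line stands for a single tumour. With 1 group the arrays show which of these miRNAs gave a signal, not what the drug changed, and no p-values were computed.

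The miR-200 family is expressed in epithelial cells, where its members repress the transcription factors Zeb1 and Zeb2 and so keep E-cadherin expressed. Zeb1 and Zeb2 in turn repress the genes of the family, and loss of these miRNAs accompanies the change from an epithelial to a mesenchymal state. miR-203 promotes differentiation of the epidermis by repressing p63, and miR-205 is typical of basal and squamous epithelium. The miR-183 cluster is a single polycistronic transcript best known from sensory cells of the ear and the retina, and its members are raised in many carcinomas.

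The mature sequences show how closely the members are related, and hence which of them a hybridisation probe has to tell apart. All 10 matched RefSeq by name (build GRCm38.p6), and the sequences are given 5′ to 3′ with the seed, bases 2 to 8, in capitals. The 10 members carried 7 different seeds.
mmu-miR-200b-3p: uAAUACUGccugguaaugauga
mmu-miR-200c-3p: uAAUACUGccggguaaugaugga
mmu-miR-429-3p: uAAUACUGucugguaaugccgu
mmu-miR-200a-3p: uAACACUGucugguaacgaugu
mmu-miR-141-3p: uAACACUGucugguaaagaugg
mmu-miR-203-3p: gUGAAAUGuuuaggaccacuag
mmu-miR-205-5p: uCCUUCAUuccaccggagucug
mmu-miR-183-5p: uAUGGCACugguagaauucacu
mmu-miR-96-5p: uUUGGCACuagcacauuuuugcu
mmu-miR-182-5p: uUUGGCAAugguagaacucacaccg

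mmu-miR-200b-3p, mmu-miR-200c-3p and mmu-miR-429-3p shared a seed, mmu-miR-200a-3p and mmu-miR-141-3p shared another, and the seeds of these subgroups differed at 1 base. Counted from the 5′ end without gaps, mmu-miR-200b-3p and mmu-miR-200c-3p were identical at 20 of 22 positions, and so were mmu-miR-200a-3p and mmu-miR-141-3p. In the miR-183 cluster no seed was shared over all 7 bases. The seeds of mmu-miR-96-5p and mmu-miR-182-5p differed at 1 base, those of mmu-miR-183-5p and mmu-miR-96-5p at 1, and those of mmu-miR-183-5p and mmu-miR-182-5p at 2. Over all aligned positions, seed included, the relation was another one. There mmu-miR-183-5p and mmu-miR-182-5p were identical at 18 of 22 positions and mmu-miR-183-5p and mmu-miR-96-5p at 13 of 22. Of the 1608 array names that matched a RefSeq mature sequence, none outside the 10 members carried one of the 7 seeds.

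The hairpins lay in 3 clusters and at 2 single loci, all on the GRCm38.p6 build. The cluster of miR-200b, miR-200a and miR-429 spanned chr4:156053905-156055750 on the minus strand, within the span of the lncRNA gene Gm13648. miR-200c and miR-141 lay at chr6:124717914-124718390 on the minus strand, between the protein genes Phb2 and Ptpn6. The cluster of miR-183, miR-96 and miR-182 spanned chr6:30165918-30169737 on the minus strand, within the lncRNA gene Mirc35hg. The hairpin of miR-203 lay at chr12:112130880-112130955 on the plus strand and overlapped the miRNA gene Gm51289, and that of miR-205 at chr1:193507463-193507530 on the minus strand, within the lncRNA gene Mir205hg.

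Each member was measured by 2 probes with 15 spots each. The value of a spot is its processed intensity, the background-subtracted brightness in linear scanner units, which can fall below 0 where nothing binds. The background was taken from the negative-control spots of the same array, 7 control sequences that averaged 0.45 ± 2.33 on array 1 (SD over 995 spots) and 1.30 ± 2.66 on array 2 (SD over 990 spots). Their mean plus 3 SD was 7.44 on array 1 and 9.27 on array 2. A miRNA was called detected where Feature Extraction, the scanner software, set its detection flag, which coincided for every miRNA with a probe total signal more than 3 times as large as the error of that probe. No spot was saturated, and the small number of arrays limits the precision of every value.

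No member was detected on both arrays. On array 1 the flag was set for mmu-miR-96-5p and mmu-miR-183-5p, which makes 2 of 10, whereas 16.6% of all 1881 miRNAs carried it there, and the same 16.6% carried it on at least 1 array. On array 2 the count was 0 of 10, against 10.7% of all miRNAs, and on both arrays together it was again 0 of 10 against 10.7%. The median member intensity was 0.61 on array 1 and 0.12 on array 2, and that of all miRNAs was 0.33 on array 1 and 0.09 on array 2. The members as a set thus lay close to the middle of the array, with mmu-miR-96-5p and mmu-miR-183-5p on array 1 apart from the others.

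The count of members depended on how far above the controls a mean had to lie. By the mean plus 3 SD of the control spots it was 1 of 10 on array 1 (15.5% of all miRNAs), namely mmu-miR-96-5p. By that limit it was 0 of 10 on array 2 (8.77% of all) and 0 of 10 on both (8.72% of all). With 3 SD of a mean over spots as the limit, 4 of 10 passed on array 1 (31.8% of all) and 2 of 10 on array 2 (18.8% of all). These 2, mmu-miR-205-5p and mmu-miR-96-5p, also were the ones to pass on both arrays (18.7% of all), and 4 passed on at least 1 array (31.9% of all). Above the plain control mean lay 5 members on array 1 (47.7% of all), 4 on array 2 (30% of all), 4 on both (29.2% of all) and 5 on at least 1 (48.5% of all). No member had most of its spots well above background by the scanner's flag, against 9.2% of all miRNAs on array 1, 4.78% on array 2, 4.68% on both and 9.3% on at least 1. None of these limits gave a member count far above the share of all miRNAs.

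**Figure D1:**
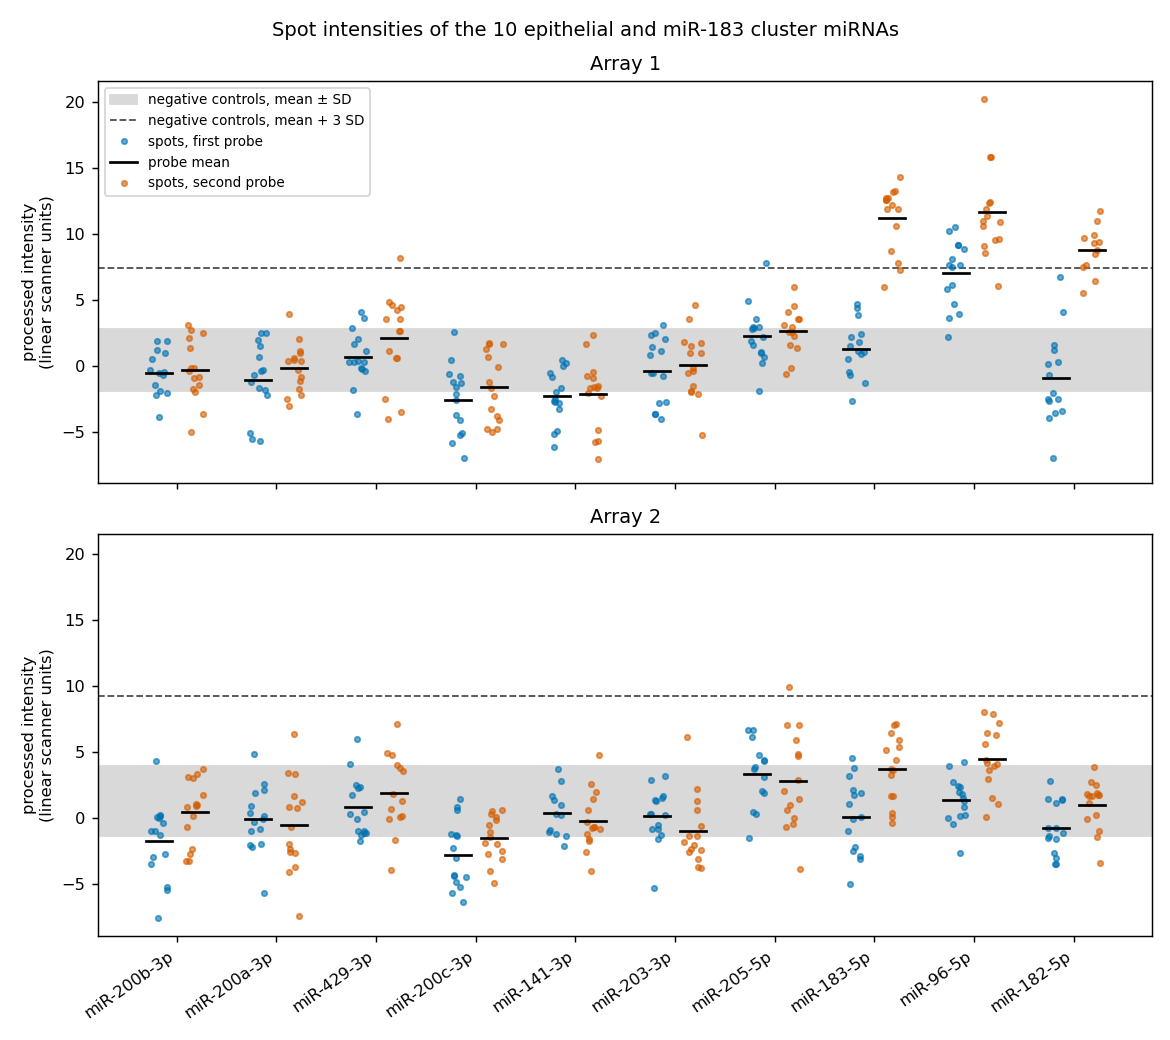
Processed intensity in linear scanner units (y axis) of every spot used for the 10 members (x axis) on array 1 (top) and array 2 (bottom), with spots coloured by probe and black bars at the probe means. The grey band is the mean ± SD of the negative controls and the dashed line their mean plus 3 SD. On array 1 the second probes of mmu-miR-183-5p, mmu-miR-96-5p and mmu-miR-182-5p had means above the dashed line, and on array 2 no probe mean reached it.

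The 5 miR-200 family members were not detected on either array, and none of their spots was well above background. mmu-miR-200b-3p averaged -0.41 ± 2.03 on array 1 (SD over 29 spots) and -0.62 ± 2.86 on array 2 (SD over 30 spots). mmu-miR-200a-3p, its neighbour in the cluster, averaged -0.58 ± 2.35 on array 1 and -0.27 ± 3.0 on array 2 (SD over 30 spots each). Both lay below the negative-control mean on both arrays. mmu-miR-429-3p, encoded by the same cluster, averaged 1.37 ± 2.82 on array 1 (SD over 30 spots) and 1.37 ± 2.63 on array 2 (SD over 29 spots). It was the one family member above the negative-control mean, by 0.40 SD of the control spots on array 1 and 0.02 SD on array 2, which is within the spread of the controls.

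The other miR-200 cluster also lay below the negative-control mean on both arrays. mmu-miR-200c-3p averaged -2.07 ± 2.59 on array 1 and -2.12 ± 2.20 on array 2 (SD over 30 spots each). mmu-miR-141-3p averaged -2.24 ± 2.32 on array 1 (SD over 30 spots) and 0.09 ± 2.01 on array 2 (SD over 27 spots, 3 outlier spots being left out). Values below the negative controls give no order of amount. No probe of the family had a total signal above its own error, the highest ratio being 0.73 on array 1 and 0.66 on array 2, both for the same probe of mmu-miR-429-3p.

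mmu-miR-203-3p, the epidermal differentiation miRNA, averaged -0.15 ± 2.45 on array 1 and -0.39 ± 2.40 on array 2 (SD over 30 spots each), below the control mean on both arrays. mmu-miR-205-5p, the basal epithelial miRNA, was not detected either but lay above the control mean on both arrays, with 2.47 ± 1.98 on array 1 and 3.10 ± 3.11 on array 2 (SD over 29 spots each). These means exceeded that of the brightest of the 7 control sequences, 1.25 on array 1 and 2.36 on array 2. The share of all miRNAs that did so was 37% on array 1, 20.6% on array 2 and 20.5% on both. Among the members 5 did so on array 1 and 2 did so on both arrays, namely mmu-miR-205-5p and mmu-miR-96-5p. Neither probe of mmu-miR-205-5p stood out. Their signals were 0.82 and 0.95 times their errors on array 1 and 1.14 and 0.97 times on array 2. Of the spots of mmu-miR-205-5p, 25 of 29 on array 1 and 20 of 29 on array 2 lay above the control mean, and 1 on each array exceeded the control mean by 3 SD.

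The miR-183 cluster gave the highest member means on array 1, whereas on array 2 mmu-miR-205-5p had the highest. mmu-miR-96-5p, in which seed mutations cause deafness in mice and humans, averaged 9.34 ± 3.80 on array 1 and 2.94 ± 2.62 on array 2 (SD over 30 spots each). It was the sole member whose mean exceeded the negative controls by 3 SD, and it did so on array 1, where 15.5% of all miRNAs did. On array 1 all 30 spots lay above the control mean and 23 lay above the 3 SD limit, but 3 were well above background by the scanner's own flag. On array 2, 22 of the 30 spots lay above the control mean and 0 above the limit.

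mmu-miR-183-5p averaged 6.22 ± 5.51 on array 1 and 1.93 ± 3.21 on array 2 (SD over 30 spots each). The wide spread on array 1 came with a gap between its probes. The spots of the brighter probe ranged there from 5.99 to 14.3 with a median of 12.2, whereas those of the dimmer one ranged from -2.65 to 4.70 with a median of 1.12. The spots of these probes did not overlap on array 1. On array 2 the brighter probe had a median of 3.76 and the dimmer one of 0.07, and their spots overlapped.

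mmu-miR-182-5p, encoded by the same transcript, averaged 3.36 ± 5.65 on array 1 (SD over 27 spots) and 0.15 ± 2.10 on array 2 (SD over 30 spots). It was not called detected, although its brighter probe averaged 8.76 ± 1.79 on array 1 (SD over 12 spots), a mean above the 3 SD limit of 7.44. The total signal of that probe was 2.99 times its error, just under the 3 that detection needs, and 3 of its 15 spots had been left out as outliers. With those spots kept its mean was 9.15. Its other probe averaged -0.96 ± 3.43 on array 1 (SD over 15 spots), below the control mean.

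Of the 20 member probes, 2 (10%) passed the detection limit on array 1, where 12.9% of all 4415 mouse miRNA probes did, and 0 on array 2, where 7.86% did. The passing probes belonged to mmu-miR-183-5p, with 3.70 times its error, and to mmu-miR-96-5p, with 3.83 times. The other probe of mmu-miR-96-5p reached 2.42 times its error. On array 2 the same order held within each miRNA of the cluster: the brighter probe of mmu-miR-96-5p reached 1.53 times its error and the dimmer one 0.48, those of mmu-miR-183-5p 1.27 and 0.05, and those of mmu-miR-182-5p 0.35 and -0.25. The brighter probe was thus the same on both arrays for all 3 cluster members. Over all 10 members it was the same for 6, the others being mmu-miR-200b-3p, mmu-miR-429-3p and mmu-miR-200c-3p. No probe of those others had a total signal above its own error. The share of all miRNAs with the same brighter probe was not computed, so these counts show no trait of the members.

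**Figure D2:**
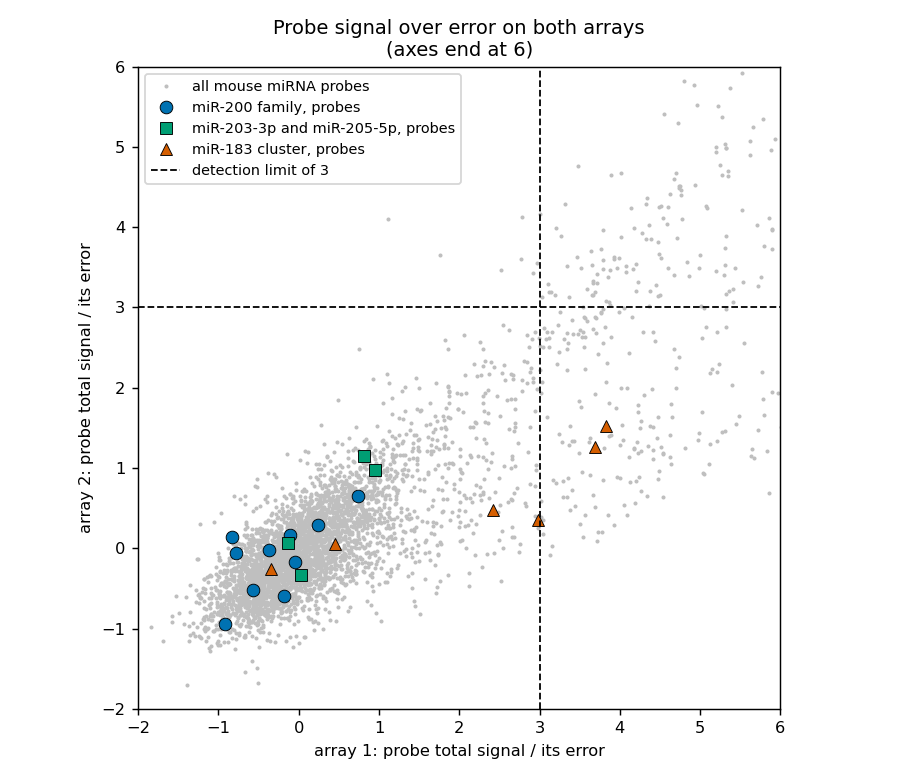
Total signal of each probe divided by its error on array 1 (x axis) and array 2 (y axis), with the 20 member probes coloured by group over all 4415 mouse miRNA probes in grey, and dashed lines at the detection limit of 3. The axes end at 6, which leaves 252 grey probes outside. Of the miR-183 cluster, 2 probes lie past 3 on array 1, another at 2.99, and none on array 2, while the miR-200 family probes lie around 0 on both axes.

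All 3 miR-183 cluster members were brighter on array 1. The difference in mean intensity, array 1 minus array 2, was 6.39 for mmu-miR-96-5p, 4.29 for mmu-miR-183-5p and 3.21 for mmu-miR-182-5p. It was between -2.33 (mmu-miR-141-3p) and 0.24 (mmu-miR-203-3p) for the other 7 members. With each array's negative-control mean subtracted, the difference was 7.24, 5.15 and 4.07 for these 3 cluster members in the same order. For the other 7 it then lay between -1.47 (mmu-miR-141-3p) and 1.09 (mmu-miR-203-3p). Without that subtraction, 60.9% of the 1881 miRNAs were brighter on array 1, with a median difference of 0.29. The arrays differed in general: array 1 detected 312 miRNAs and array 2 detected 202. Of all miRNAs, 111 were detected on array 1 alone, with a median of 10.1 there and 3.10 on array 2, and mmu-miR-96-5p and mmu-miR-183-5p are 2 of these. The 4 control sequences named dmr that were detected on both arrays differed by 0.06 to 0.27 on the log2 scale. The part that the amount or labelling of RNA on each array had in the cluster's difference was not tested.

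On the log2 scale, with intensities under 1 set to 1, the difference was 1.76 for mmu-miR-96-5p and 0.94 for mmu-miR-183-5p. Scaling each array to the 75th percentile of the 201 miRNAs that both arrays detected removes 1.71. The median difference before scaling was smaller, 0.78 over those 201 and 0.05 over all miRNAs. Scaling leaves 0.04 for mmu-miR-96-5p and turns the difference of mmu-miR-183-5p to -0.77. Quantile normalization kept array 1 higher, by 0.88 for mmu-miR-96-5p and 0.29 for mmu-miR-183-5p, so the direction for mmu-miR-183-5p depended on the scaling. Scaled log2 signals were 2.21 ± 0.03 for mmu-miR-96-5p, 1.59 ± 0.54 for mmu-miR-183-5p, 1.31 ± 1.37 for mmu-miR-205-5p and 1.09 ± 0.30 for mmu-miR-182-5p (SD, n = 2). The small SD of mmu-miR-96-5p follows from the shift of 1.71 and does not show agreement, since array 2 did not detect this miRNA. The other 6 members had means of 0.08 to 0.84 with SDs of 1.13 to 1.43. Before scaling those 6 had differed between the arrays by -0.31 to 0.11, and the scaling moves each difference by 1.71.

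**Figure D3:**
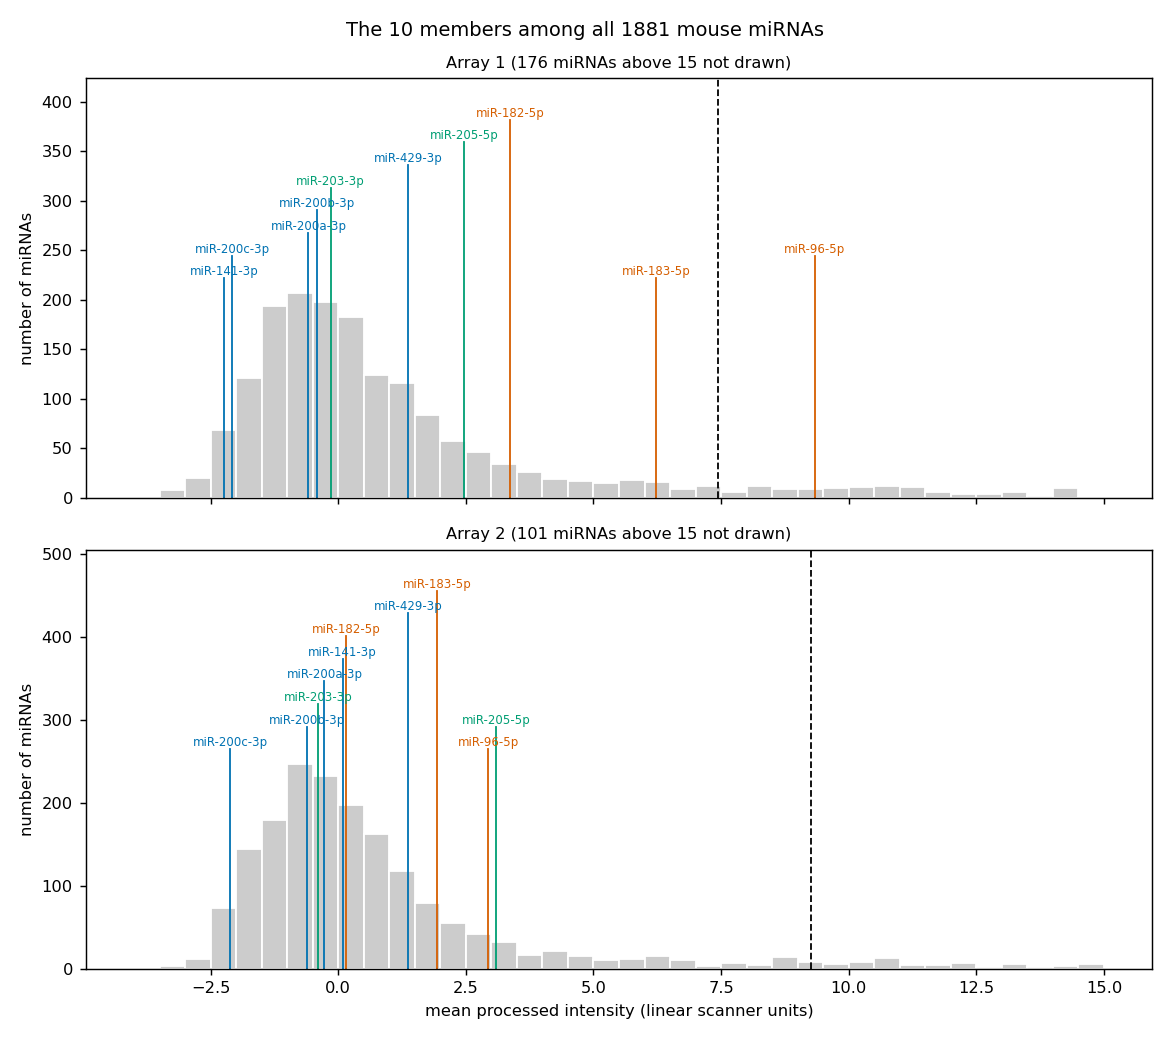
Number of miRNAs (y axis) by mean processed intensity in linear scanner units (x axis) on array 1 (top) and array 2 (bottom), with coloured lines at the 10 members (miR-200 family blue, mmu-miR-203-3p and mmu-miR-205-5p green, miR-183 cluster orange) and a dashed line at the negative-control mean plus 3 SD. Above an intensity of 15 lie 176 miRNAs on array 1 and 101 on array 2, which are not drawn. mmu-miR-96-5p on array 1 is the one member to the right of the dashed line.

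The opposite arms of the same hairpins, usually the degraded strand, were at background throughout. Of the 10 opposite arms 0 were detected on array 1 (16.6% of all miRNAs) and 0 on array 2 (10.7% of all), including those of the miR-183 cluster. Their means lay between -2.42 (mmu-miR-205-3p) and 0.33 (mmu-miR-182-3p) on array 1, and between -2.40 (mmu-miR-183-3p) and 0.97 (mmu-miR-203-5p) on array 2. All of them lay below the negative-control mean of their array, above which 47.7% of all miRNAs lay on array 1 and 30% on array 2. mmu-miR-96-3p, opposite to the brightest member, averaged 0.03 ± 2.69 on array 1 and 0.74 ± 2.72 on array 2 (SD over 30 spots each), so the cluster's signal on array 1 was confined to the 5p arms among the names measured here.

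Other miRNAs known from epithelia gave a mixed picture. Of 10 such miRNAs, 3 were detected on both arrays and 1 more on array 1. The 3 were mmu-miR-31-5p, common in squamous epithelium and many carcinomas, and mmu-miR-34b-5p and mmu-miR-34c-5p, p53 targets that are abundant in ciliated airway cells. mmu-miR-31-5p averaged 102.4 on array 1 and 30.1 on array 2, mmu-miR-34b-5p 91.1 and 23.2, and mmu-miR-34c-5p 89.6 and 25.9. mmu-miR-449a-5p, also abundant in ciliated cells, was detected on array 1, at 6.20, and not on array 2, at 2.91. It was among the 111 miRNAs detected on array 1 alone, as were mmu-miR-96-5p and mmu-miR-183-5p. mmu-miR-375-3p, an endocrine and epithelial miRNA, and the gut and liver miRNAs mmu-miR-192-5p, mmu-miR-194-5p and mmu-miR-215-5p were detected on neither array, with means between -0.94 and 2.34 on array 1 and between -1.54 and 0.40 on array 2. miR-449b and mmu-miR-449c-5p were not detected either.

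miRNAs typical of mesenchymal cells were detected in part. Of 8 named in the list 7 matched an array name, and 4 of these were detected on both arrays, namely mmu-miR-199a-3p (139.3 on array 1 and 34.4 on array 2), mmu-miR-199b-5p (75.3 and 18.1), mmu-miR-214-3p (47.0 and 15.4) and mmu-miR-199a-5p (20.5 and 6.58). The other 3 were detected on neither array, namely mmu-miR-214-5p, which is the opposite arm of a detected miRNA, and the smooth muscle miRNAs mmu-miR-143-3p and mmu-miR-145a-5p. The count on both arrays was 4 of 7 for the mesenchymal list, 3 of 10 for the other epithelial list and 0 of 10 for the members. The lists were chosen with earlier results of these data known, so the difference between these counts is no test of cell type. Of all miRNAs 10.7% were detected on both arrays, and miRNAs of a list can share a hairpin. Brightness depends on the probe, so these intensities do not rank miRNAs by amount. Whether the LLC cells themselves express the miR-200 family was not analysed here. Of markers of blood cells, which a culture of a single line should lack, 0 of 3 red cell miRNAs were detected on either array. Of 3 leukocyte miRNAs mmu-miR-142a-3p alone was detected, on array 1, where it averaged 20.0 and all 30 spots exceeded the 3 SD limit. On array 2 it averaged 4.86, above the control mean. The undetected mmu-miR-223-3p (7.40 on array 1 and 6.40 on array 2) and mmu-miR-486a-5p (6.18 and 2.71) lay above the control mean on both arrays. On both arrays mmu-miR-144-3p and mmu-miR-150-5p lay below it, and mmu-miR-451a lay above it on array 1 alone.

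**Figure D4:**
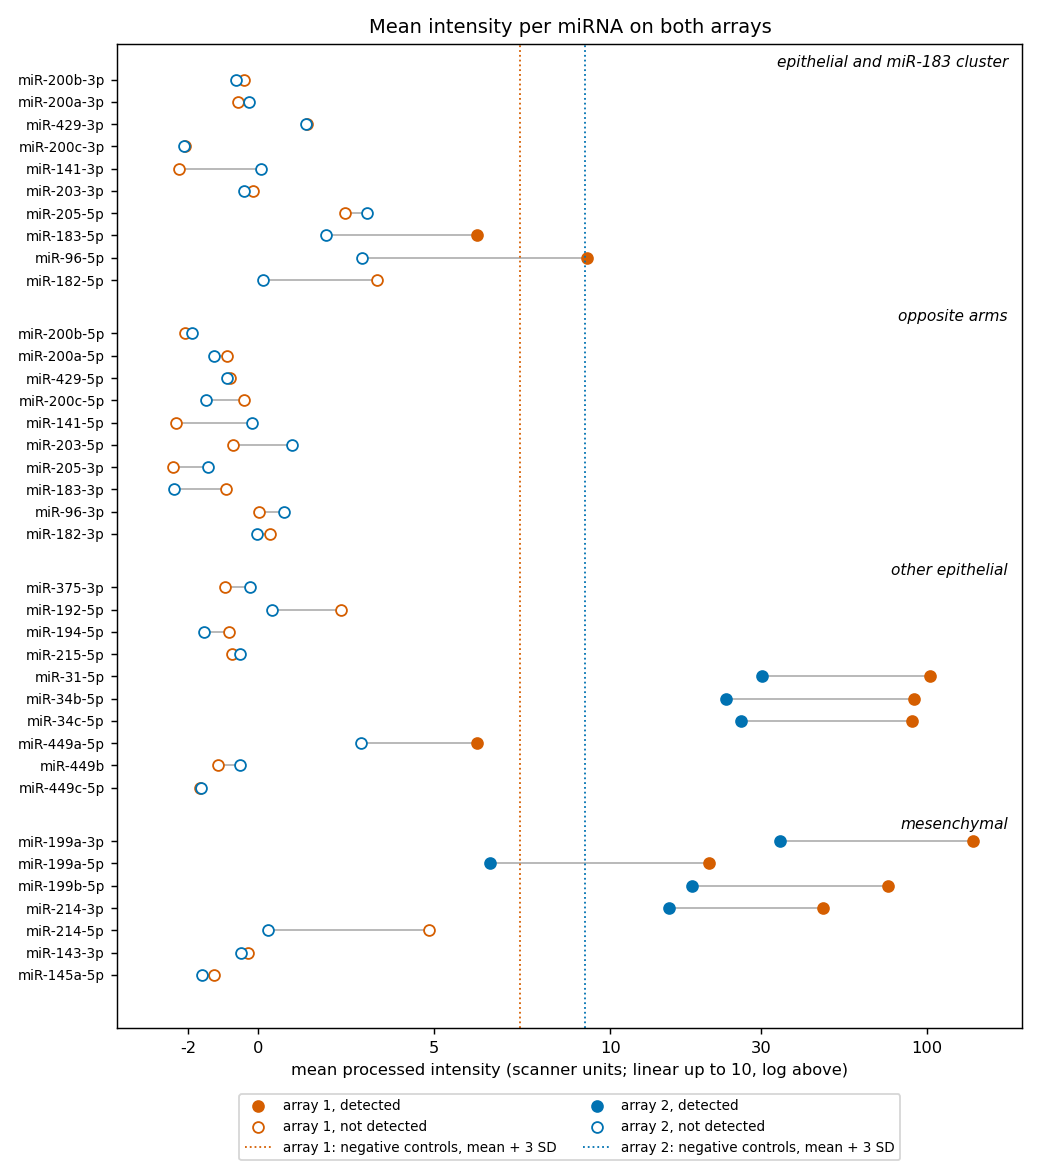
Mean processed intensity in scanner units (x axis, linear up to 10 and logarithmic above) of each miRNA in the 4 lists (rows) on array 1 (orange) and array 2 (blue), filled where the miRNA was detected, with dotted lines at each array's negative-control mean plus 3 SD. The members and their opposite arms lie mostly left of both lines, and 3 other epithelial and 4 mesenchymal miRNAs are filled on both arrays.

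The miRNAs whose pair of log2 signals lay closest to that of mmu-miR-96-5p, the member with the highest mean log2 signal, were mmu-miR-100-5p, mmu-miR-361-5p and mmu-miR-10a-5p. Their Euclidean distances over the 2 arrays were 0.09, 0.18 and 0.21 log2 units. All 3 were detected on array 1 and not on array 2, with intensities of 9.37 and 2.72 for mmu-miR-100-5p, 10.4 and 2.88 for mmu-miR-361-5p, and 8.17 and 2.60 for mmu-miR-10a-5p on array 1 and array 2. With 2 arrays this likeness says no more than that their signals were similar.

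The content of G and C was 36.4% to 54.5% over the 10 mature sequences, with a median of 40.9%. The median was 52.2% over the 1608 array names with a sequence and 59.1% over those of them that were detected on both arrays. The part of base composition in detection was not tested. It was 40.9% for mmu-miR-183-5p, 39.1% for mmu-miR-96-5p and 54.5% for mmu-miR-205-5p, the highest of the members.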

How the data were processed

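Exosome RNA labelled with Cy3 was hybridised to 2 one-colour mouse miRNA arrays on 1 slide, read in the same scan. Per the submitters' processing notes, spots were quantified in Agilent Feature Extraction, version 10.7.1.1. The deposited scanner files give the processed intensity of each spot, background-subtracted and spatially detrended per the file headers. The labels describe a cRNA amplification kit, and no other labelling step is stated. The authors also deposited a table of log2 values, used as an alternative. No source used here states its scaling.

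Spots of the 10 named miRNAs were taken by systematic name, and population outlier spots were left out. Intensities under 1 were set to 1, log2 values were averaged over spots and then probes, and the 75th percentile over miRNAs detected on both arrays was the scaling. The linear intensities are means over spots, unscaled. Calculations used Python 3.11.15, pandas 2.3.3 and numpy 2.4.6, with limma 3.58.1 in R 4.3.3 for normexp background correction. On simulated arrays of 1881 miRNAs the level calculation recovered 100% of 200 known changes within 0.25 log2 units. All simulated levels lay above those of the 10 members, so this checks the calculation and not its accuracy near background.

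All 10 members, their opposite arms, the comparison lists and the 3 miRNAs nearest to the brightest member are named. The members and lists were chosen with earlier results of these data known. No test was made, since there was 1 group. Alternatives covered detection rule, control limit, scaling, floor, outlier spots, probe summary and leaving out an array. An SD over spots is technical error within an array.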

Additional observations from a re-analysis of the deposited data

How the results depend on the processing

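The count of members detected on both arrays was 0 by the detection flag, and also when most spots had to be well above background, when the mean had to exceed the negative controls by 3 SD, and at 6 times the probe error. Leaving out 1 array in turn gave 0 to 2, the 2 coming from array 1 alone. On at least 1 array the count was 2, but 0 with most spots well above background, 1 by the 3 SD limit, 0 at 6 times the error, and 0 to 2 with 1 array left out, the 0 being without array 1. No opposite arm was detected under any of these alternatives. Of all miRNAs, 16.6% passed the flag on at least 1 array, 9.3% the well-above rule and 15.5% the 3 SD limit. Shares of all miRNAs are not given here for 6 times the error, 2 SD or the 99th percentile. Members above the negative controls on both arrays numbered 0 with limits of 3 SD, 2 SD or the 99th percentile and with outlier spots kept. They numbered 2 (mmu-miR-205-5p and mmu-miR-96-5p) with a limit of 3 SD of a mean over spots, and 0 to 1 with 1 array left out.

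The median scaled log2 signal of the members was 0.60. It was 5.88 with normexp, whose offset of 50 is added to every spot, and -1.01 with the floor at 0.1. Both the listed total signal and the authors' deposited table gave -3.32. That is the log2 of 0.1, the total listed for members not detected, and the lowest value of the table. It is therefore no estimate of level. The median ranged from -0.23 to 1.30 with 1 array left out. The difference of array 1 minus array 2, an alternative chosen after seeing the data, was 0.94 for mmu-miR-183-5p but -0.77 after scaling, -0.61 with normexp and -1.24 in the authors' deposited table. For mmu-miR-96-5p it was 1.76, but 0.04 after scaling, -0.55 with normexp and -0.92 in the authors' deposited table. Scaling to the 75th percentile over all miRNAs kept array 1 higher, by 1.41 for mmu-miR-96-5p and 0.60 for mmu-miR-183-5p. The cause of these changes with the setting was not tested. Of 80 member values under 8 settings, 36 moved by less than the SD of the scaled signals between arrays and 44 by more. The scaling shift of 1.71 enters that SD, so these counts depend on the scaling and do not measure replicate spread. Centred scalings and leaving out an array are not counted here, because they cannot move a mean of 2 arrays past that SD. Outlier spots were not restored for the detection counts, since the flag is the scanner software's own. No paired analysis was possible because there is 1 group. With 2 arrays and most members at the negative controls, a low amount cannot be told from none.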

Other observations

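The scanner files list a total signal for each detected miRNA. For the detected members it differed from the sum of their own detected probes. For mmu-miR-183-5p on array 1 the listed total was 20.2, whereas its detected probe summed to 2.37. The listed total equalled that sum plus 17.8, the listed total of mmu-miR-17-3p, the detected name before it. For mmu-miR-96-5p the listed total was 43.4 and its own sum 2.47, and the difference equalled the 40.9 listed for mmu-miR-93-5p. The listed totals of these members were therefore not used as levels.

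The authors' deposited table held the same set of sorted values for both arrays, from -3.32 to 13.2 on the log2 scale. In it mmu-miR-183-5p had -2.18 on array 1 and -0.94 on array 2, and mmu-miR-96-5p had -2.16 on array 1 and -1.24 on array 2. Both were thus listed higher on array 2, where neither was detected, while the scanner intensities were higher on array 1. The remaining 8 members stood at the table's lowest value, -3.32, on both arrays. Of the 312 mouse miRNAs above the lowest value on array 2 in the authors' deposited table, 110 were not detected there by the scanner flag.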
